A study of Mus musculus with 12 samples.

Results

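The aryl hydrocarbon receptor genes described here are 7 of the 52636 genes in the count files: the receptor Ahr, its DNA-binding partner Arnt, the repressors Ahrr and Tiparp, and the cytochrome P450 targets Cyp1a1, Cyp1a2 and Cyp1b1. They were chosen by name, because Cyp1a2 was already known to be lower in one group of these livers, to see whether the receptor and its other targets differed as well. Liver RNA-seq was performed on 12 male C57Bl/6J mice at 16 weeks of age, with 1 library per mouse, named VDD1 to VDD6 and VDS1 to VDS6 after the labels. The 6 VDD-F1 mice were born to mothers on a vitamin D deficient diet with added calcium gluconate before mating and during pregnancy, and the 6 VDS-F1 mice to mothers on a nutrient-matched vitamin D sufficient diet. All mothers received the sufficient diet after delivery and all offspring received it after weaning, so the groups differ in the diet of the mother and not in the diet at dissection. The sources used here do not assign mice to litters or give the time of day of dissection, and p-values therefore measure the spread between these mice.

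The aryl hydrocarbon receptor is a transcription factor that waits in the cytoplasm with chaperone proteins. When it binds a ligand, such as a dioxin, a polycyclic hydrocarbon or an indole made from tryptophan, it enters the nucleus, pairs with Arnt and binds DNA at xenobiotic response elements with the core GCGTG. Cyp1a1, Cyp1b1, Ahrr and Tiparp are targets that rise sharply with a ligand, and Ahrr and Tiparp in turn hold the receptor back. Cyp1a2 is also induced by the receptor but is made at a high level in hepatocytes around the central vein without an added ligand, where it oxidizes caffeine, aromatic amines and many drugs.

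The sequences before the start sites of the 3 P450 genes are shown because these genes share a regulator and did not have the same values between the groups. RefSeq start sites on GRCm38.p6 were available for 6 of the 7 genes, all but Ahr. Each line gives the 250 bases before the start site, 5′ to 3′ on the strand of the gene, with the core GCGTG or its reverse complement CACGC in capitals. The windows are chr9:57683656-57683905 (minus strand) for Cyp1a2, chr9:57697363-57697612 (plus strand) for Cyp1a1 and chr17:79715062-79715311 (minus strand) for Cyp1b1.
Cyp1a2: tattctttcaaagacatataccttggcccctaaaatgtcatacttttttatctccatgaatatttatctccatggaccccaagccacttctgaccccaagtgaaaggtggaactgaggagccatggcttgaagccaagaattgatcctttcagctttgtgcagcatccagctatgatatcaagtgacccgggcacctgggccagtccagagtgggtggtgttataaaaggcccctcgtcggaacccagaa
Cyp1a1: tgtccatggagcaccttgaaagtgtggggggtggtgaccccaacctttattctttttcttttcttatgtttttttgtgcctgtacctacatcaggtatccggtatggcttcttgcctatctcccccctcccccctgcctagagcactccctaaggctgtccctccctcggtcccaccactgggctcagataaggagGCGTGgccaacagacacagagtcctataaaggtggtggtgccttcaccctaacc
Cyp1b1: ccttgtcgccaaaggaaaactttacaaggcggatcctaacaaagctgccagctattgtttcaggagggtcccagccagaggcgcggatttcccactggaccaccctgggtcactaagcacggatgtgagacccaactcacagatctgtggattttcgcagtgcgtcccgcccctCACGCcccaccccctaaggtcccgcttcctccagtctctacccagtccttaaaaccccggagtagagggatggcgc
The core was searched on both strands, and its 2 forms do not overlap each other within these windows. It began 54 bases before the start of Cyp1a1 and 76 bases before that of Cyp1b1, and these letters were not in the window of Cyp1a2. Ahrr held it 3 times, 107, 82 and 27 bases before its start, Tiparp once at 170 bases and Arnt once at 29 bases. It was present in 28.2% of the 32851 windows of this length, and a match is a description of the sequence only. Bases farther from the start were not searched, so a window without the core does not show that the gene lacks it.

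Fragments per library numbered 25897868 to 36403413, and 14275793 to 20815066 of them were counted on genes on the reverse strand. Mapped fragments with no gene on the reverse strand, which can include those antisense to a gene, made up 11.1% in VDS6. In the other mice they made up 2.52% to 4.94%. Together with unmapped, multiply mapped and ambiguous fragments, 37.4% to 50.3% were not counted on genes. The supplement of the study gives a liver weight for 7 of the mice (VDD4 to VDD6, VDS3 to VDS6) but not for the other 5, and results are also given for these sets of 7 and 5 mice. The weights were matched to the libraries by group and mouse number only, so every value by set rests on that match. Levels are CPM, counts scaled to the size of the library (its sum over the genes tested) after TMM normalization. A mean count of 12 or more was required for edgeR's quasi-likelihood test, which left 12453 genes and 5 of the 7 described here (Cyp1a2, Cyp1b1, Ahr, Arnt and Tiparp). A gene was called at an adjusted p-value under 0.05 with a log2-fold change above 1 or below -1, and fold changes are VDD-F1 minus VDS-F1.

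Of the 5 receptor genes tested, only Cyp1a2 was called, and it was lower in VDD-F1 livers. Across all genes tested, 0.0241% were called lower and 0.0161% higher, 0.0402% in all. Ahr, Arnt and Tiparp were not called, and Cyp1b1 had the opposite direction to Cyp1a2 without passing the threshold in this test. Cyp1a1 and Ahrr had too few counts for the test.

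Cyp1a2 (ENSMUSG00000032310.4, chromosome 9, 57676937 to 57683703, minus strand, GRCm38) ranged from 148 CPM through a median of 299 to 361 in VDD-F1 mice, and from 462 through 778 to 861 in VDS-F1 mice. The 6 VDD-F1 mice were all below the 6 VDS-F1 mice, as were 0.57% of all genes tested. VDD2 was the lowest VDD-F1 mouse, and VDS2 and VDS1 were the lowest VDS-F1 mice, at 462 and 588. The means were 281 ± 71.9 and 714 ± 155 CPM (SD, n = 6 each), which is 2.54-fold more in VDS-F1 by the fitted log2-fold change of -1.35 (SE 0.20, 95% interval -1.77 to -0.92, adjusted p = 0.0269 with Benjamini-Hochberg adjustment over all genes). Because this difference led to the choice of the genes, it is a description and not independent evidence. The call was lost on leaving out any one of VDD4, VDD5, VDD6, VDS3, VDS4, VDS5 or VDS6, with adjusted p-values from 0.0806 to 0.130, while the log2-fold change stayed between -1.44 and -1.21 over all 12 omissions.

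In the mice with a recorded liver weight, Cyp1a2 ranged from 270 to 309 CPM in VDD-F1 and from 762 to 861 in VDS-F1, a log2-fold change of -1.48. In the others it ranged from 148 to 361 and from 462 to 588, a log2-fold change of -0.95. The groups were apart in both sets. The test of the difference between the sets gave -0.53 (SE 0.35, adjusted p = 0.733 from edgeR's interaction term), where 0.0883% of all genes had an adjusted and 9.01% an unadjusted p-value under 0.05.

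**Figure D1:**
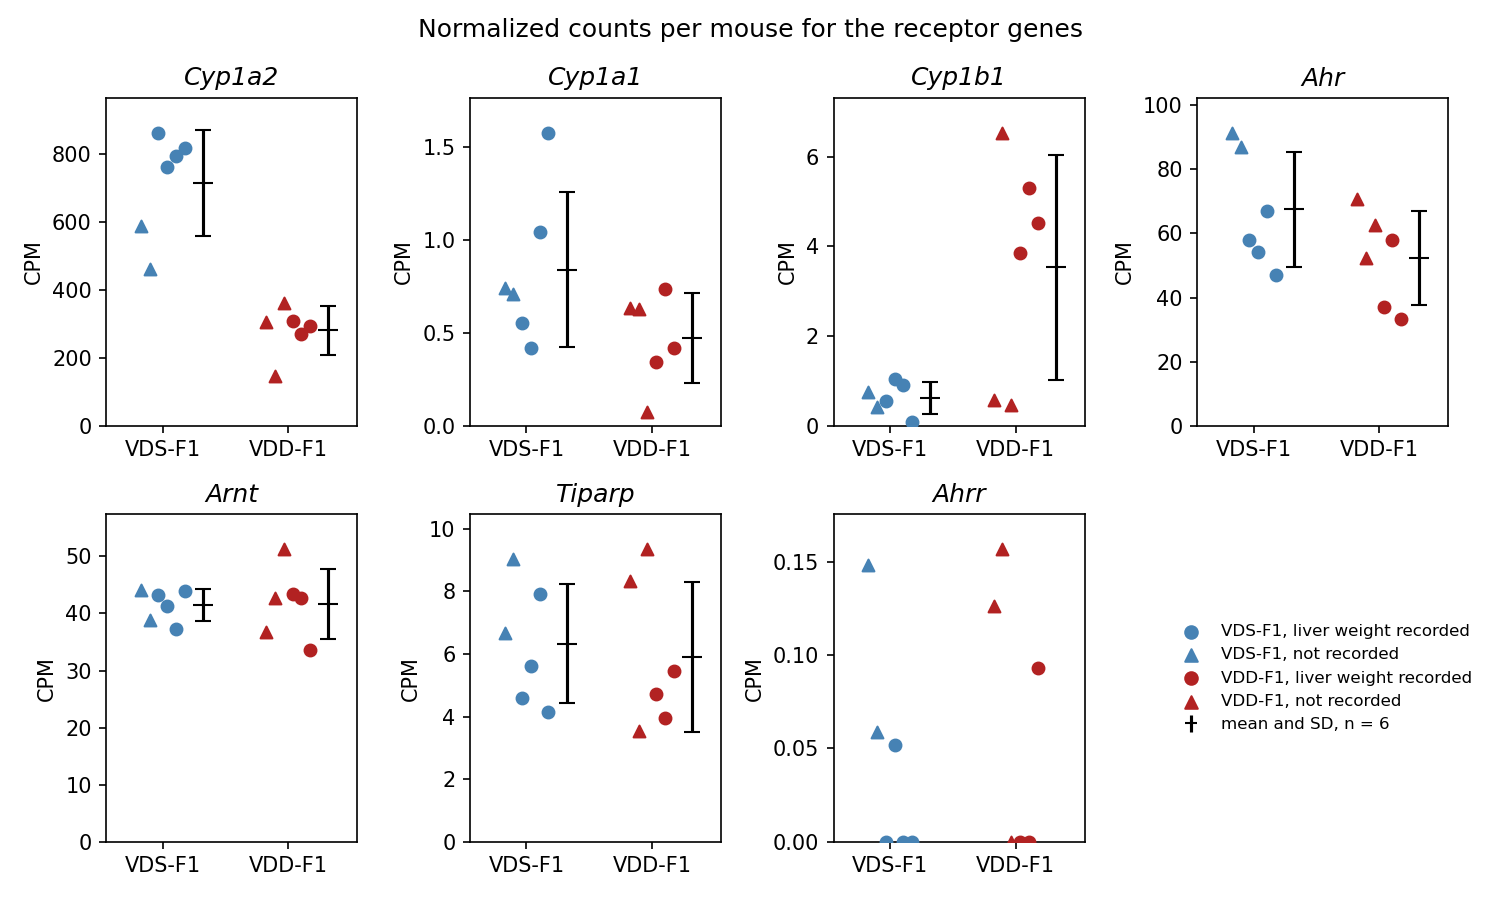
CPM (linear axis from 0, own scale in each panel) of the 7 genes in each mouse, with VDS-F1 in blue, VDD-F1 in red, circles for mice with and triangles for mice without a recorded liver weight, and the mean with SD for each group except for Ahrr, where every library has 3 counts or fewer. Cyp1a2 is at most 361 CPM in VDD-F1 mice and at least 462 in VDS-F1 mice, while the groups overlap in the other panels.

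Cyp1a1 (ENSMUSG00000032315.6, chromosome 9, 57687928 to 57703824, plus strand) lies beside Cyp1a2 in the opposite orientation, with 4224 bases between the genes as GENCODE annotates them. The RefSeq start site used for the sequence above lies further downstream, within the GENCODE span of Cyp1a1. It is the target most often used as a sign of receptor activity and oxidizes polycyclic hydrocarbons. It had 1 to 14 counts per library in VDD-F1 and 8 to 22 in the VDS-F1 group, in total 51 and 80. Its level was 0.0753 to 0.736 CPM in VDD-F1 (median 0.523) and 0.416 to 1.57 CPM in VDS-F1 (median 0.724), so the groups overlapped. When a total count of 12 sufficed for the test, its log2-fold change was -0.79 (SE 0.46, adjusted p = 0.464 by edgeR), and a difference was not detectable at this depth.

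Cyp1b1 (ENSMUSG00000024087.3, chromosome 17, 79701537 to 79715061, minus strand) encodes the P450 of the family that hydroxylates estradiol and polycyclic hydrocarbons and is known mainly from mesenchymal and other non-hepatocyte cells. Its counts in VDD1 to VDD6 were 9, 125, 6, 56, 101 and 97, and in VDS1 to VDS6 they were 15, 7, 8, 20, 13 and 1. VDD2, VDD4, VDD5 and VDD6 were thus above every VDS-F1 mouse, and VDD1 and VDD3 were among the VDS-F1 mice. The totals were 394 and 64 counts, so Cyp1b1 reached the mean count of 12 needed for the test only through the group where it was high. In CPM, VDD-F1 ranged from 0.452 through a median of 4.18 to 6.52, and VDS-F1 from 0.0715 through 0.645 to 1.04. The log2-fold change was 2.49 (SE 0.63, 95% interval 1.15 to 3.83, adjusted p = 0.0958 by edgeR), which did not pass the threshold. DESeq2's Wald test called Cyp1b1 (adjusted p = 0.00405) and Cyp1a2, where it called 1.75% of all genes higher and 0.281% lower. edgeR called it in the 7 mice with a recorded liver weight (2.78, adjusted p = 0.00225), where 3.07% of genes were called higher. It also called Cyp1b1 without VDD1 (adjusted p = 0.0209), where 1.7% of genes were called higher, or without VDD3 (adjusted p = 0.0385), where 0.584% were. These were the only 4 of the 23 alternative fits that called Cyp1b1. Of these 4, all but DESeq2 left out VDD1, VDD3 or both, the VDD-F1 mice lowest in Cyp1b1. Among the fits without a call were voom (adjusted p = 0.0752) and edgeR with the mouse set as a covariate (adjusted p = 0.0765).

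The same 4 VDD-F1 mice had the highest summed levels of stellate and fibroblast markers and of cholangiocyte markers. The 10 stellate and fibroblast markers, among them the collagen genes Col1a1 and Col3a1, summed to 338, 980, 480, 625, 570 and 521 CPM in VDD1 to VDD6, and to between 316 and 488 in VDS-F1 mice. The 6 cholangiocyte markers, among them the bile duct keratins Krt7 and Krt19, summed to 23.9, 117, 41.4, 72.1, 66.0 and 59.0 CPM in VDD1 to VDD6, and to between 28.1 and 51.6 in VDS-F1 mice. VDD2, VDD4, VDD5 and VDD6 were above all VDS-F1 mice in both sums. Of the stellate and fibroblast markers 9 of 10 had a higher mean in VDD-F1 by edgeR, 6 at an unadjusted p-value under 0.05, and of the cholangiocyte markers 6 of 6, with 4 at that threshold, where 9.55% of all genes were higher at it. edgeR called none of either list and DESeq2 called 2 of the stellate and fibroblast markers. Their part in the Cyp1b1 values was not tested, and in whole liver more cells of a type and more RNA per cell cannot be told apart.

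The hepatocyte markers summed to 92864 to 110542 CPM in VDD-F1 and 81740 to 100928 in the VDS-F1 group, which overlap, and their part in the Cyp1a2 values was not tested. None of the 10 hepatocyte markers had an unadjusted p-value under 0.05 by edgeR, and DESeq2 called none. Endothelial markers summed to 361 to 462 CPM in VDD-F1 and 346 to 522 in VDS-F1, and macrophage markers to 136 to 350 and 185 to 346, with 2 of 8 lower at an unadjusted p-value under 0.05 in each list, where 6.29% of all genes were. Lymphocyte markers summed to 0.527 to 9.19 and 1.43 to 3.48 CPM, 2 of 7 were tested, and Cd3e, Cd3g, Ncr1, Nkg7 and Ms4a1 were among those with 0 counts in some libraries. All markers of the labelled tissue, liver, were present in every library.

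**Figure D2:**
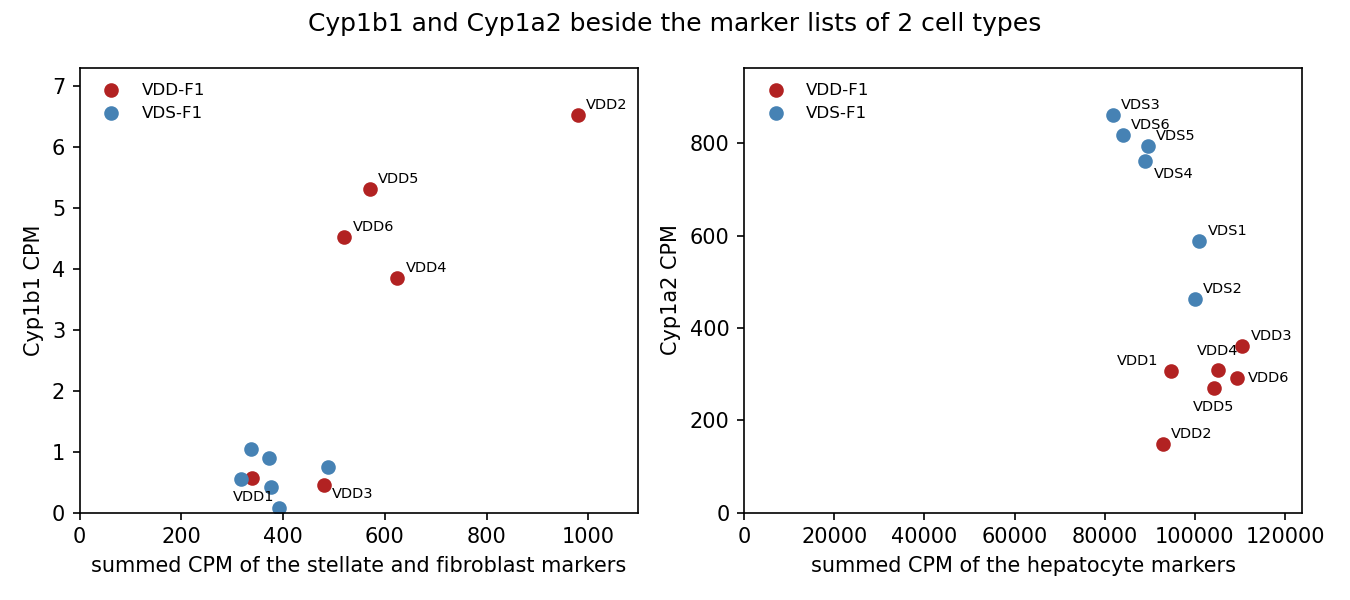
Left, Cyp1b1 (CPM) against the summed CPM of the stellate and fibroblast markers, and right, Cyp1a2 (CPM) against the summed CPM of the hepatocyte markers, on linear axes from 0 with 1 point per mouse. VDD2, VDD4, VDD5 and VDD6 stand at the upper right on the left side, and on the right side the VDD-F1 mice lie below the VDS-F1 mice in Cyp1a2 at hepatocyte sums between 92864 and 110542.

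Ahr (ENSMUSG00000019256.17, chromosome 12, 35497974 to 35535038, minus strand), the receptor itself, ranged from 33.4 through a median of 55.1 to 70.8 CPM in VDD-F1, and from 47.1 through 62.5 to 91.3 in VDS-F1 mice. The groups overlapped, with VDS1 and VDS2 above all VDD-F1 mice. The means were 52.3 ± 14.6 and 67.5 ± 18.0 CPM (± SD, n = 6 mice in each group), giving a log2-fold change of -0.37 (SE 0.20, 95% interval -0.80 to 0.06, adjusted p = 0.393 by edgeR). By set, VDD-F1 mice ranged from 52.2 to 70.8 without and from 33.4 to 57.9 with a recorded liver weight, and VDS-F1 mice from 87.1 to 91.3 and from 47.1 to 66.9. The sets overlapped in VDD-F1 mice and not in VDS-F1 mice. The log2-fold change was -0.40 in the mice with and -0.53 in the mice without a recorded weight, and -0.46 with the set as a covariate (SE 0.14, unadjusted p = 0.00492, adjusted p = 0.117 by edgeR). Its sign was negative in all 23 alternative fits and it was called in 0 of them. Gm48236 overlaps Ahr on the other strand, which is counted separately.

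Arnt (ENSMUSG00000015522.18, chromosome 3, 95434388 to 95497240, plus strand), the partner that the receptor shares with the hypoxia-inducible factors, had the most even values of the 7 genes. It ranged from 33.5 through 42.7 to 51.2 CPM in VDD-F1 and from 37.3 through 42.3 to 44.0 in VDS-F1 mice, so the VDS-F1 range lay within that of VDD-F1. The log2-fold change was 0.01 (SE 0.10, 95% interval -0.20 to 0.22, adjusted p = 0.982 by edgeR). The interval leaves out the size of the Cyp1a2 difference but not a small change of either sign. A predicted gene on the same strand, Gm42672, overlaps Arnt, and fragments shared by both are not in these counts.

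Tiparp (ENSMUSG00000034640.9, chromosome 3, 65528410 to 65555518, plus strand) encodes a mono-ADP-ribosyltransferase that is induced by the receptor and leads to its degradation. It ranged from 3.55 through 5.10 to 9.34 CPM in VDD-F1 and from 4.15 through 6.14 to 9.03 in VDS-F1 mice, with overlapping groups. The log2-fold change was -0.11 (SE 0.26, 95% interval -0.68 to 0.45, adjusted p = 0.879 by edgeR). Ahrr (ENSMUSG00000021575.16, chromosome 13, 74211118 to 74292331, minus strand), the repressor that competes with the receptor for Arnt, had 2, 3, 0, 0, 0 and 2 counts in VDD1 to VDD6 and 3, 1, 0, 1, 0 and 0 in VDS1 to VDS6. Both groups were at or under the 3 counts below which no fold is given, so Ahrr was not measurable at this depth.

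**Figure D3:**
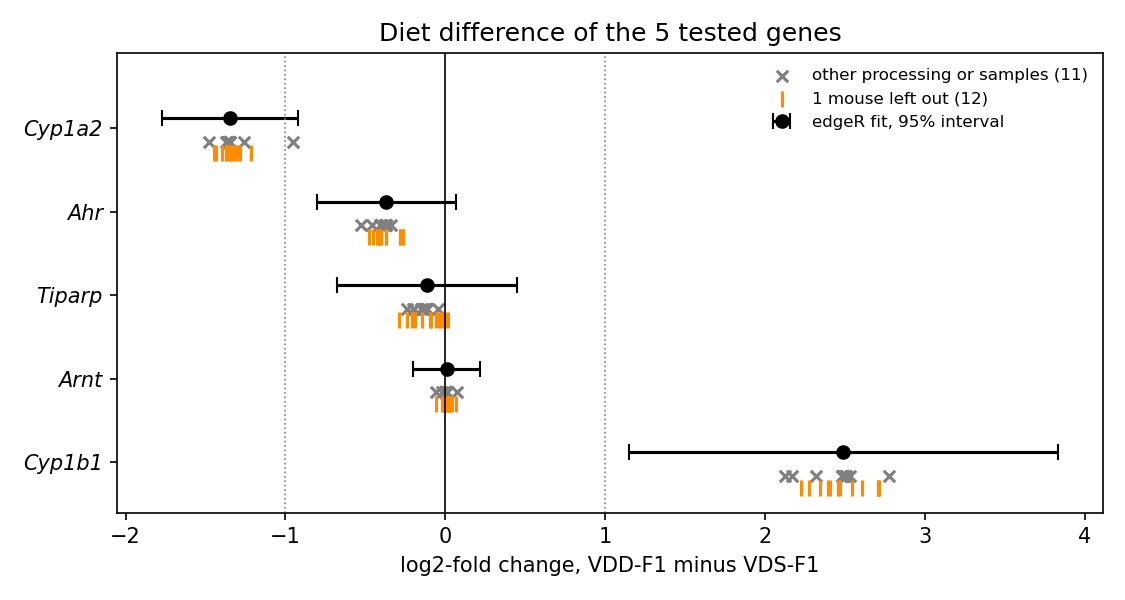
Log2-fold change (VDD-F1 minus VDS-F1) of the 5 tested genes, with the edgeR value and 95% interval in black, the other processing choices or sets of mice as grey crosses and the omission of each mouse as orange bars, with dotted lines at the thresholds of -1 and 1. Cyp1a2 stays below 0 and Cyp1b1 above 0 in all 23 alternatives, Ahr stays between -0.53 and -0.26, Tiparp between -0.29 and 0.02, and Arnt between -0.06 and 0.07.

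Levels of the genes were compared as FPKM, CPM per kilobase of merged exons. In VDS-F1 livers the order was Cyp1a2 at 355 ± 77.2, Ahr at 10.9 ± 2.93, Arnt at 5.17 ± 0.355, Tiparp at 1.45 ± 0.437, Cyp1a1 at 0.301 ± 0.150, Cyp1b1 at 0.106 ± 0.0603 and Ahrr at 0.00457 FPKM (SD, n = 6). The ranges of Cyp1a1 and Cyp1b1 overlapped there, as did those of Cyp1b1 and Ahrr. In VDD-F1 livers Cyp1a2 was again first, at 140 ± 35.7 FPKM, followed by Ahr at 8.49 ± 2.38 and Arnt at 5.21 ± 0.763, whose ranges overlapped, and by Tiparp at 1.35 ± 0.549. There Cyp1b1, at 0.606 ± 0.430, stood above Cyp1a1, at 0.169 ± 0.0872, and the range of Cyp1b1 overlapped those of Tiparp and Cyp1a1 (SD, n = 6). Of the summed FPKM of the 3 P450 genes, Cyp1a2 made up 99.3% ± 0.620 in VDD-F1 and 99.9% ± 0.0319 in the VDS-F1 group, and Cyp1b1 0.538% ± 0.532 and 0.0309% ± 0.0164 (SD, n = 6 each). Cyp1a2 was thus nearly all of the family's RNA in both groups.

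Relative to the receptor RNA in the same mouse, Cyp1a2 was also lower on average in VDD-F1, as a description that reuses the Cyp1a2 values. The log2 ratio of Cyp1a2 to Ahr CPM averaged 2.42 ± 0.62 for the VDD-F1 and 3.41 ± 0.70 for the VDS-F1 group, a difference of -0.99. For Arnt the ratio was 2.71 ± 0.48 and 4.07 ± 0.34, a difference of -1.36, and the groups did not overlap (1.79 to 3.12 and 3.57 to 4.41). For Tiparp it was 5.59 ± 0.38 and 6.81 ± 0.73, a difference of -1.22 (SD, n = 6 each throughout), and the groups overlapped (5.18 to 6.06 and 5.66 to 7.58).

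Within a group, Cyp1a2 was related to each of the other genes except Ahrr over 6 mice, which gave 10 relations of log2 CPM. None had an adjusted p-value under 0.05 (Benjamini-Hochberg), 2 had an unadjusted one under it by Pearson's r and 1 other by Spearman's rho, and the smallest p-value that 6 mice allow is 0.00139. For Tiparp in VDD-F1 mice, Pearson's r was 0.73 (two-sided exact permutation p = 0.0361, adjusted to 0.243), with Spearman's rho = 0.83 (exact permutation p = 0.0583, adjusted p = 0.292) and r = 0.64 without the 2 mice farthest from the median. For Ahr in VDS-F1 mice, r was -0.83 (two-sided exact permutation p = 0.0486, adjusted to 0.243), with rho = -0.66 (exact permutation p = 0.175, adjusted p = 0.350). Without VDS1 and VDS2, the mice with no recorded liver weight, r was -0.04, so this relation rests on them. For Cyp1b1 in VDD-F1 mice, rho was -0.94 (exact permutation p = 0.0167, adjusted p = 0.167), with r = -0.63 (exact permutation p = 0.158, adjusted p = 0.396) and r = -0.56 without the 2 farthest mice. The sets hold at most 4 mice of a group, so the r of -0.04 is a description only. No other value is given within a set.

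The genes whose level followed Cyp1a2 most closely were found among all 12452 other genes tested, from log2 CPM with each group's mean taken out, over the 12 mice and as a description. They were Plekhb1 (r = 0.97), the catalase gene Cat (0.96), the mitochondrial superoxide dismutase gene Sod2 (0.96), the mitochondrial ribosomal protein gene Mrpl38 (0.95) and Entr1 (0.93). In each of them VDD2 was the lowest of the 12 mice, as it was in Cyp1a2, and the points share the depth and composition of their library. By the same measure Tiparp (r = 0.18) had rank 4318, Arnt (0.12) rank 4959, Ahr (-0.32) rank 9470 and Cyp1b1 (-0.44) rank 10401.

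Around the receptor, 116 genes in 11 lists were examined, of which 106 were tested. None was called by edgeR or DESeq2. At an unadjusted p-value under 0.05, 18 were lower and 6 higher in VDD-F1 mice, 17.0% and 5.66% of those tested, where 6.29% and 9.55% of all genes were. By sign alone 68.9% were lower, where 49.2% of all genes tested were, a share against which the counts by sign in each list are read. The median log2-fold change was -0.13, where that of all genes was 0.00. The lists were chosen with earlier results of these data known and are described by these counts only.

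Other genes of the receptor battery, which encode conjugating, reducing and transport proteins induced by the receptor, had differences in both directions and no call. Of 17 tested, 3 were lower and 3 higher at an unadjusted p-value under 0.05, and the median log2-fold change was 0.31. Ugt1a1, which conjugates bilirubin, averaged 147 ± 40.1 CPM in the VDD-F1 and 242 ± 32.7 in the VDS-F1 group (mean ± SD, n = 6 each), with a log2-fold change of -0.72 (SE 0.16, adjusted p = 0.0855 by edgeR). Cd36, a fatty acid transporter that the receptor also induces, averaged 92.2 ± 34.1 and 49.2 ± 12.8 CPM, with a log2-fold change of 0.90 (SE 0.22, adjusted p = 0.0947 by edgeR). Slc46a3, a lysosomal transporter, had a log2-fold change of -0.46 (SE 0.14, adjusted p = 0.139). DESeq2's adjusted p-values were 0.00194 for Ugt1a1 and 0.00654 for Cd36, which were not called because their fold changes lay within the thresholds of -1 and 1. Of the genes named in the lists that follow, Ido2, Kmo, Cyp2e1, Cry2 and Hlf likewise had an adjusted p-value under 0.05 by DESeq2 with a fold change within the thresholds. The Ugt1a genes share their last exons, so their counts are uncertain. The textbook battery genes Nqo1, Gsta1 and Ugt1a6b were added after their values were seen. Nqo1, a quinone reductase, had a log2-fold change of 0.61 (SE 0.32), Gsta1, a glutathione transferase, 1.52 (SE 0.80), and Ugt1a6b -0.36 (SE 0.14), with adjusted p-values of 0.370, 0.377 and 0.243. Aldh3a1, another, had 1 count in all VDD-F1 and 6 in all VDS-F1 libraries and was not tested.

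Of the genes for proteins that hold or assist the receptor, none was called. Of 4 chaperone genes none had an unadjusted p-value under 0.05 by edgeR and none was called by DESeq2, with log2-fold changes of -0.22 for Hsp90aa1 and -0.14 for Hsp90ab1. Of 10 coactivators and corepressors, Med1 was lower (-0.21, SE 0.09, adjusted p = 0.266) and Ncoa7 higher (0.69, SE 0.24, adjusted p = 0.188) at an unadjusted p-value under 0.05 by edgeR, and Nrip1 had 0.17. The other partners of Arnt had -0.20 for Epas1 and 0.04 for Hif1a. Of 8 hypoxia-inducible factor targets tested, which share Arnt as a partner, 4 were lower and 4 higher and none had an unadjusted p-value under 0.05, among them Ndrg1 (0.49), Slc2a1 (0.30) and Vegfa (-0.21).

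Enzymes that make or remove tryptophan products, some of which are receptor ligands, had 2 genes lower and 1 higher at an unadjusted p-value under 0.05 among 10 tested. Ido2 averaged 85.3 ± 14.1 CPM in the VDD-F1 and 115 ± 6.59 in the VDS-F1 group (mean ± SD, n = 6 each), with a log2-fold change of -0.43 (SE 0.11, adjusted p = 0.0947 by edgeR), and had every VDD-F1 mouse below every VDS-F1 mouse, as 1 of the 106 genes and 0.57% of all genes did. Kmo, which hydroxylates kynurenine, had -0.27 (SE 0.08, adjusted p = 0.133), and Acmsd, which diverts the pathway from NAD synthesis, had 1.20 (SE 0.38, adjusted p = 0.145). Of 12 genes for electron donors of P450 enzymes and for heme, 9 were lower, 3 of them at an unadjusted p-value under 0.05, namely Alad (-0.31), Cyb5a (-0.30) and Cpox (-0.33), with adjusted p-values of 0.133, 0.223 and 0.280.

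All 9 other regulators of Cyp1a2 had a log2-fold change below 0, and 3 of them an unadjusted p-value under 0.05. Among these were Hnf4a, a hepatocyte transcription factor gene (-0.29, SE 0.13, adjusted p = 0.301), and the gene of the constitutive androstane receptor, Nr1i3 (-0.83, SE 0.35, adjusted p = 0.273), both by edgeR's quasi-likelihood test. Of 11 genes of pericentral hepatocytes, the zone where Cyp1a2 is made, 10 were lower, with a median of -0.45. Cyp2e1, the ethanol-oxidizing P450 of that zone, averaged 3209 ± 1601 CPM in the VDD-F1 and 5391 ± 770 in the VDS-F1 group (mean ± SD, n = 6 each), with a log2-fold change of -0.75 (SE 0.25, adjusted p = 0.174), and Tbx3 and Rnf43 had -0.74 and -0.62 (adjusted p = 0.235 and 0.220). Of 8 periportal genes 4 were lower and 4 higher, with a median of 0.12, among them Sds at 0.73 (SE 0.27, adjusted p = 0.221), Gls2 at 0.36 and Ass1 at 0.26.

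**Figure D4:**
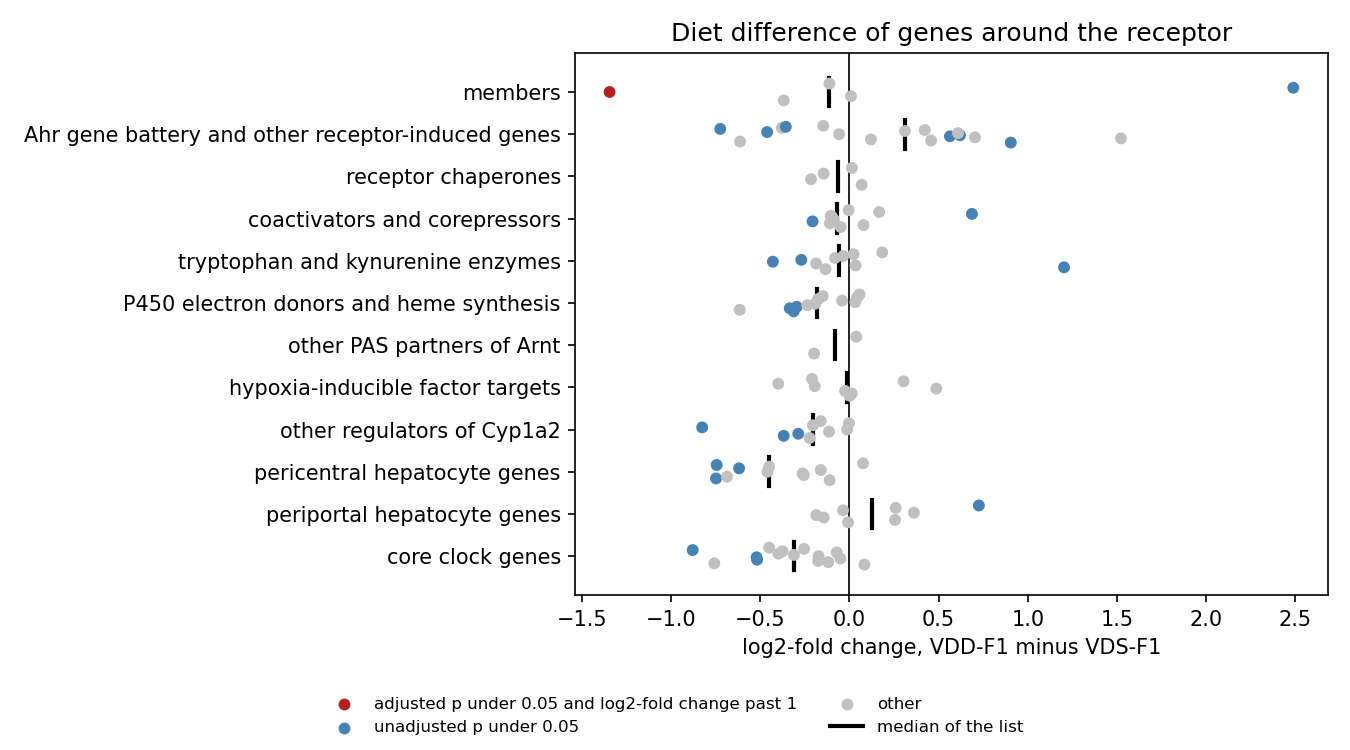
Log2-fold change (VDD-F1 minus VDS-F1) of each tested gene of the receptor set (members) and of the 11 lists around it, with a black line at the median of each list, red for called genes, blue for an unadjusted p-value under 0.05 and grey for the rest. Cyp1a2 is the only red point, the pericentral and clock lists lie mostly below 0 with medians of -0.45 and -0.31, and the receptor battery is spread on both sides.

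Several of these genes, like Cyp1b1, had VDD2, VDD4, VDD5 and VDD6 apart from VDD1 and VDD3. Cyp2e1 had 4220, 2130, 6037, 2527, 2098 and 2243 CPM in VDD1 to VDD6, with 4633 to 6542 in VDS-F1 mice. Nr1i3 had 56.7, 11.6, 32.6, 14.0, 13.8 and 15.2 CPM, with 32.8 to 61.3 in VDS-F1 mice. In both, these 4 mice were the lowest of the 12. Acmsd had 24.9, 60.2, 13.2, 86.0, 77.8 and 84.3 CPM, with 17.3 to 34.2 in VDS-F1 mice, so there the same 4 mice were the highest. Glul, the pericentral glutamine synthetase gene, had 1309, 392, 1568, 313, 298 and 261 CPM, with 918 to 1477 in VDS-F1 mice, and Nqo1 had 2.90, 10.5, 3.99, 5.97, 7.10 and 7.88, with 1.78 to 5.77. The genes of this paragraph were chosen for this comparison after their values were seen, and whether they share a cause with Cyp1b1 was not tested. Cyp1a2, at 307, 148, 361, 309, 270 and 292 CPM, was below the VDS-F1 range in all 6, VDD1 and VDD3 included, and VDD2, VDD5 and VDD6 were the lowest. In the 7 mice with a recorded liver weight, edgeR called 11 of the 106 genes, where it called 4.33% of all genes, 1.26% lower and 3.07% higher. Cyp2e1, Glul, Nr1i3, Tbx3, Dbp, Nr1d1, Per2, Per3 and Tef were lower there and Acmsd and Gsta1 higher. Not all of these kept their direction in the other 5 mice. Nr1d1 had 145, 132 and 170 CPM in VDD1 to VDD3 and 49.8 and 57.7 in VDS1 and VDS2. Dbp was likewise higher in those VDD-F1 mice, Per2 was lower, and Per3 and Tef overlapped between the groups. Over all mice, voom called 3 of the 106, Per2, Nr1i3 and Acmsd, where it called 2.02% of all genes.

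The clock genes were examined because several P450 genes follow the time of day. Of 15 tested, 14 were lower, 3 of them at an unadjusted p-value under 0.05, with a median of -0.31: Cry2 (-0.52, SE 0.14, adjusted p = 0.100), Hlf (-0.52, SE 0.14, adjusted p = 0.103) and Per2 (-0.88, SE 0.31, adjusted p = 0.197), by edgeR's quasi-likelihood test. Dbp, a strongly rhythmic gene chosen after its values were seen, had 12.9, 100, 18.1, 2.47, 1.42 and 4.10 CPM in VDD1 to VDD6 and 3.36, 6.67, 23.0, 28.0, 82.1 and 1.86 in VDS1 to VDS6. It varied widely within both groups, and in the 7 mice with a recorded liver weight its log2-fold change was -3.64. The part of dissection time in the Cyp1a2 values was not tested.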

How the data were processed

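Liver RNA of 12 mice was sequenced after ribosomal RNA removal. The authors aligned the trimmed reads to mm10 (GRCm38) with STAR and deposited per-gene raw counts of fragments, without normalization, for either strand and ignoring strand. The column used is not named, and the reverse-strand count was taken because it held 92.7% to 95.8% of stranded counts. Fragments mapping to several places or to several genes are not counted.

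Gene positions and exon lengths came from GENCODE M21, where the authors used M15, with 52403 of 52636 genes matched. edgeR 4.0.16 (R 4.3.3, TMM, quasi-likelihood test in its legacy form, Benjamini-Hochberg adjustment) was fitted to all 12453 genes whose mean count was 12 or more, where the study's methods name DESeq2. CPM and FPKM were computed here, and log2 CPM used a prior count of 2. Libraries were grouped by label, and no pair correlated above 0.989, so none was counted as a duplicate.

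Alternatives were DESeq2 1.42.0, voom with limma 3.58.1, size factors, filters, strand, the newer edgeR form, mouse set, a replicate block and each mouse left out. Summaries used Python 3.11.15 with pandas 2.3.3, NumPy 2.4.6 and SciPy 1.17.1, and matplotlib 3.10.9 drew the plots. The fits were tested on simulated data. The genes and lists were chosen with earlier results of these data known. From each list up to 3 genes with the smallest p-values were named, with the 5 genes nearest to Cyp1a2, and cell type markers only as lists. A few genes that the rule names are not reported here. Histology, qRT-PCR and cell proportions were not analysed here. The study's own qRT-PCR of Cyp1a2 used the same RNA with fewer VDS-F1 than VDD-F1 samples, and its p-value did not reach significance.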

Additional observations from a re-analysis of the deposited data

Results flagged for a closer look

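In 88 groups of 6 mice, the most extreme mouse was compared with the others by Dixon's criterion, and 5 groups held a mouse that stood apart, where chance gives about 1 in 20. Cat had 1876 CPM in VDD2 and 2662 to 3017 in the other VDD-F1 mice. Entr1 had 23.9 CPM in VDD2 and 29.6 to 32.7 in the others. Hif1a had 63.2 CPM in VDD3 and 40.9 to 47.2 in the other VDD-F1 mice. Med1 had 42.2 CPM in VDS2 and 53.2 to 57.5 in the other VDS-F1 mice. Nr1i3 had 61.3 CPM in VDS5 and 32.8 to 43.4 in the others. None of the 7 receptor genes was among them. The test of a different diet difference in the 2 sets of mice had an adjusted p-value under 0.05 for 0 of 42 named genes (edgeR's interaction term), where it did for 0.0883% of all genes and an unadjusted one for 9.01%.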

How the results depend on the processing

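The number of receptor genes called was 1 with edgeR and 2 with DESeq2 and in the mice with a recorded liver weight, where Cyp1b1 was added, and 0 in the mice without one, and it ranged from 0 to 2 when 1 mouse was left out. Without VDD4, VDD5, VDD6, VDS3, VDS4, VDS5 or VDS6 it was 0, and without VDD1 or VDD3 it was 2. Over all genes the count was 5, against 253 with DESeq2, 252 with voom, 70 with no filter, 17 with the newer edgeR form, 21 with the mouse set as a covariate, 536 in the mice with and 0 in those without a recorded weight, and 0 to 260 with 1 mouse left out, the highest without VDD1. Of the genes in the lists 0 were called, against 3 with voom (Per2, Acmsd and Nr1i3), 11 in the mice with a recorded weight and 0 to 2 with 1 mouse left out (1 without VDD1, 2 without VDD3). The cause of these changes was not tested. DESeq2's size factors, a total count of 12 and the count without strand left the number of receptor genes called at 1.

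The log2-fold change of Arnt turned to -0.018 with voom, -0.0013 with no filter, -0.0043 with the mouse set as a covariate, -0.057 in the mice with a recorded weight and -0.00037 with a replicate block, and ranged from -0.057 to 0.065 with 1 mouse left out. With 1 mouse left out, that of Tiparp ranged from -0.29 to 0.016, above 0 without VDS2, and that of Hif1a from -0.057, without VDD3, to 0.079. In the mice without a recorded weight Acmsd had -0.045, Hnf4a 0.071, Ass1 -0.034 and Sod2 0.023. With the replicate number as a block, edgeR called 17 genes and 1 receptor gene, Cyp1a2 (-1.36, adjusted p = 0.00301). Deviations of same-numbered mice correlated at -0.0762 to 0.103, so the numbers do not pair the mice. A count of 1 to 22 per library limits Cyp1a1, and 0 to 3 limits Ahrr.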
